A study of Homo sapiens with 18 samples.

Results

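The genes described here are the 37 genes of human mitochondrial DNA, of 63241 genes in the deposited count table, taken as every row whose gene symbol starts with MT-. They comprise 13 mRNAs, 2 rRNAs and 22 tRNAs, and the rule uses no measured value. RNA was sequenced from 2 human prostate cancer lines, and per its title the study examined the plant flavonoids genistein and baicalein as radiosensitizers for a PSMA-directed radioligand. The 18 libraries fall into 6 groups of 3: LNCaP with baicalein at 10 or 20 µM for 24 h, LNCaP with genistein at 10 or 20 µM for 24 h, PC-3 without drug, and LNCaP without drug. LNCaP is an androgen-responsive line grown from a lymph node metastasis, PC-3 was grown from a bone metastasis and does not need androgen, and both carry the label wild type. The control libraries are called untreated in their labels, whereas the treatment protocol speaks of DMSO as vehicle; below they are called untreated. Each line stands for a single tumour, and the 18 libraries include no drug-treated PC-3. Nothing in the labels says whether the 3 libraries of a group came from separate cultures. The tests therefore measure the spread between libraries, part or all of which may be technical.

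Human mitochondrial DNA is a small circle transcribed from both strands into long precursor RNAs. tRNA genes lie between most mRNAs and rRNAs, and cutting the precursor on either side of each tRNA releases the separate RNAs, which then have their own lifetimes. The mRNAs encode core membrane subunits of Complex I (MT-ND1 to MT-ND6 and MT-ND4L), Complex III (MT-CYB), Complex IV (MT-CO1, MT-CO2 and MT-CO3) and the ATP synthase, Complex V (MT-ATP6 and MT-ATP8), while all other subunits, and Complex II as a whole, are encoded in the nucleus. The rRNAs and tRNAs serve the mitochondrial ribosome that translates these mRNAs. Most mitochondrial mRNAs end in a short poly(A) tail, the MT-ND6 mRNA lacks one, and mature tRNAs carry the bases CCA without a tail. The libraries were selected for poly(A) with a kit that does not record the strand, so counts on tRNA genes need not follow the pool of mature tRNAs, and reads from either strand of a gene cannot be told apart.

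The genes lie end to end on the mitochondrial chromosome (MT, GRCh38, coordinates as deposited) with 5 small overlaps, so a count can depend on how reads at a border were assigned. MT-ND4L and MT-ND4 share 7 bases. MT-ATP8 (MT:8366-8572) and MT-ATP6 (MT:8527-9207) share 46 bases on the plus strand, because the MT-ATP6 reading frame opens inside that of MT-ATP8. The shared stretch is shown because the count ratio of these genes differed between groups. It is read from the GENCODE 29 transcripts, with the MT-ATP6 start codon and the MT-ATP8 stop codon in capitals.
MT-ATP8 and MT-ATP6 overlap (MT:8527-8572): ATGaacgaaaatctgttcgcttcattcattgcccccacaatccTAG
A stretch of chromosome 1 holds a nuclear copy of this part of the mitochondrial genome. Over 681 aligned bases its pseudogene MTATP6P1 differs from MT-ATP6 at 10 positions (98.5% identity), and the longest identical run is 141 bases. The next pair of lines shows 120 bases from positions 73 to 192 of MT-ATP6, counted from its first base, with the 4 bases that differ in capitals. This stretch was picked because no other of that length holds more differences. Even so, it shows how little separates reads of the gene from reads of its copy.
MT-ATP6 (MT:8599-8718, plus strand): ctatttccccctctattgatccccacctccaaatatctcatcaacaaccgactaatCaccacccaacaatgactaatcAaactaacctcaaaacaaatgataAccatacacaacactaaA
MTATP6P1 (chr1:633768-633887, plus strand): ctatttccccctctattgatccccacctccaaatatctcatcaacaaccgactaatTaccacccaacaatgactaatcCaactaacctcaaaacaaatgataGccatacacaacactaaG
The tRNA genes MT-TM and MT-TR are shown because, of those tested, they had the highest folds with baicalein 20 µM against untreated LNCaP. MT-TM lies directly before MT-ND2, and MT-TR lies between MT-ND3 and MT-ND4L.
MT-TM (MT:4402-4469, plus strand, 68 bases): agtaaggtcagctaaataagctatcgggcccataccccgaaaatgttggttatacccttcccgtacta
MT-TR (MT:10405-10469, plus strand, 65 bases): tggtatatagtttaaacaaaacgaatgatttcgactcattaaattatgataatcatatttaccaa

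Total counts ran from 10013567 to 18445711 per library. Counts were scaled to library size and given as CPM, with TMM factors within each fit, which is why untreated LNCaP has slightly different CPM where it is set against PC-3. Of the 37 genes, 30 passed the filter on low counts among the 15 LNCaP libraries, namely all 13 mRNAs, both rRNAs and 15 tRNA genes. The other 7 tRNA genes (MT-TC, MT-TS2, MT-TL2, MT-TA, MT-TS1, MT-TY and MT-TN) had 0 to 11 counts in any library, too few to be tested. Between PC-3 and LNCaP, MT-TG was not tested either. Of 9 genes that mark LNCaP, among them FOLH1 and KLK3, 9 were at 1 CPM or more in every LNCaP group and 7 in PC-3. Their summed CPM per library was 689.6 to 881 with baicalein 20 µM, 3394 to 4048 with baicalein 10 µM, 2617 to 2941 with genistein 20 µM, 3718 to 4256 with genistein 10 µM and 334 to 373 in PC-3, against 4380.1 to 4906 in untreated LNCaP. Of 9 genes that mark PC-3, among them CD44, VIM and AXL, 8 were at 1 CPM or more in PC-3 and 2 in every LNCaP group, and KRT5 was at 0 in all groups but genistein 20 µM. Their summed CPM was 24.2 to 29.9 with baicalein 20 µM, 9.69 to 13.7 with baicalein 10 µM, 17.99 to 21.1 with genistein 20 µM, 8.91 to 11.4 with genistein 10 µM and 3317 to 3653 in PC-3, against 8.46 to 9.08 in untreated LNCaP. The 2 at 1 CPM or more in LNCaP were VIM, at 17.9 to 19.1 CPM with baicalein 20 µM and 12.2 to 14.8 CPM with genistein 20 µM, against 6.29 to 7.10 CPM in untreated LNCaP, and LCN2, at 4.93 to 9.39 CPM with baicalein 20 µM and 4.66 to 4.98 CPM with genistein 20 µM, against 1.27 to 1.48 CPM in untreated LNCaP. The baicalein 20 µM libraries thus had lower sums of the LNCaP markers, and higher sums of the PC-3 markers, than untreated LNCaP. Whether either marker list has a part in the mitochondrial results was not tested. In bulk RNA, fewer cells of a kind and less RNA per cell cannot be told apart.

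Baicalein at 20 µM was the group in which mitochondrial transcripts took most of the counts. The 37 genes held 10.5, 14.5 and 12.4% of the counts in its 3 libraries, against 4.65, 5.36 and 5.25% in untreated LNCaP. The means were 12.5 ± 1.97% with baicalein 20 µM and 5.09 ± 0.381% in untreated LNCaP (SD, n = 3 each), a difference of 7.38 percentage points with no overlap between the groups. The exact two-sided permutation test gave p = 0.1, the smallest value that 3 against 3 libraries allow, and 0.25 after Benjamini-Hochberg adjustment over 5 such comparisons. With baicalein 10 µM the libraries held 6.08, 5.61 and 4.94%, a difference from untreated of 0.455 points with overlapping groups (exact permutation p = 0.4, adjusted 0.4). With genistein 10 µM they held 5.50, 6.32 and 6.35%, all above untreated, a difference of 0.968 points (exact permutation p = 0.1, adjusted 0.25). With genistein 20 µM they held 6.26, 5.58 and 5.03%, a difference of 0.536 points with overlapping groups (exact permutation p = 0.3, adjusted 0.375). PC-3 libraries held 4.15, 4.87 and 4.62%, which is 0.539 points below untreated LNCaP with overlapping groups (exact permutation p = 0.2, adjusted 0.333). No share comparison could reach 0.05 in this design.

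The mRNAs made up most of these counts. Their share was 9.38 ± 1.64% with baicalein 20 µM and 3.69 ± 0.310% in PC-3, against 3.82 ± 0.320% in untreated LNCaP. The rRNAs held 3.05 ± 0.322% with baicalein 20 µM and 0.859 ± 0.0573% in PC-3, against 1.25 ± 0.0604% in untreated LNCaP. The libraries were selected for poly(A), so the rRNA share says little of the rRNA content of the cells. The tRNA genes held 0.0369 ± 0.00639% with baicalein 20 µM and 0.00319 ± 0.000303% in PC-3, against 0.0152 ± 0.000815% in untreated LNCaP. Each class thus took a larger share with baicalein 20 µM than in untreated LNCaP, and the tRNA genes took a smaller share in PC-3.

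**Figure D1:**
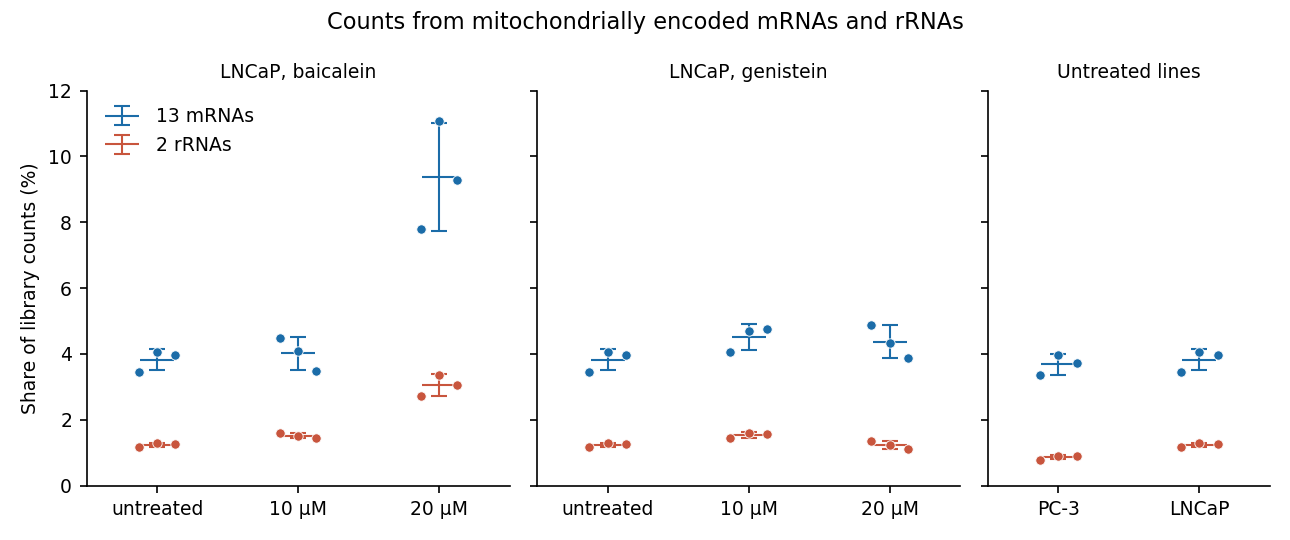
Share of all counts, in percent, that fell on the 13 mitochondrial mRNAs and the 2 rRNAs by group. Both classes are drawn in different colours on the same axes, with 1 point per library and bars at the mean ± SD of 3 libraries. The baicalein 20 µM libraries lie above every other library in both classes, and the PC-3 libraries have the lowest rRNA shares.

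Counts of different genes were compared per kilobase of gene length. With baicalein 20 µM, MT-RNR2 (19774 ± 584 CPM per kb) and MT-CO1 (19365 ± 2545 CPM per kb) stood highest and overlap within the SD of 3 libraries. MT-ATP8 (13992 ± 716 CPM per kb), MT-CO2 (13855 ± 1210.3 CPM per kb) and MT-ATP6 (10969.6 ± 889 CPM per kb) came next. MT-ATP6 was 5th of the 15 mRNAs and rRNAs by its mean, and MT-ND4, MT-ND2, MT-ND4L and MT-ND1 overlap with it within the SD. In PC-3 the order began with MT-ATP8 (7552 ± 508 CPM per kb), MT-CO1 (6370.3 ± 476 CPM per kb) and MT-ATP6 (5703 ± 366 CPM per kb), so MT-ATP6 was 3rd of 15 by its mean, and MT-CO1, MT-CO2 and MT-RNR2 overlap with it within the SD. In untreated LNCaP, MT-CO1 (6862 ± 521 CPM per kb) and MT-RNR2 (6741 ± 162 CPM per kb) stood highest, and their values overlap within the SD of 3 libraries. MT-ATP8 (5312 ± 289 CPM per kb) and MT-CO3 (4588 ± 249.9 CPM per kb) came next. At the low end stood MT-ND5 (1104 ± 71.3 CPM per kb), MT-ATP6 (718 ± 38.6 CPM per kb) and MT-ND6 (199 ± 12.9 CPM per kb). In untreated LNCaP MT-ATP6 was thus 14th of 15, with a lower level per length than every other plus-strand mRNA. As a part of the counts of the 13 mRNAs, MT-ATP6 took 7.00 ± 0.220% with baicalein 20 µM, 1.36 ± 0.0368% with baicalein 10 µM, 1.38 ± 0.0435% with genistein 20 µM, 1.34 ± 0.0852% with genistein 10 µM and 9.55 ± 0.190% in PC-3, against 1.37 ± 0.0339% in untreated LNCaP. MT-CO3 took 6.31 ± 0.0967% with baicalein 20 µM and 6.84 ± 0.154% in PC-3, against 10.1 ± 0.216% in untreated LNCaP. MT-ND2 took 9.98 ± 0.110% with baicalein 20 µM, against 6.56 ± 0.198% in untreated LNCaP. MT-ND5 took 2.72 ± 0.0211% with baicalein 20 µM, against 5.61 ± 0.287% in untreated LNCaP. The parts sum to 100, so they were not tested as such.

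With baicalein 20 µM all 12 mRNAs of the plus strand rose against untreated LNCaP, and the minus-strand mRNA MT-ND6 fell. edgeR called 23 of the 30 tested genes higher and 2 lower at an adjusted p under 0.05. Over all 16985 genes tested 57.2% were called, 29.4% higher and 27.8% lower, so being called was common in this comparison. The median log2 fold change was 1.53 over the 12 plus-strand mRNAs and 0.04 over all genes tested. Log2 fold changes below stand ± standard error with 3 libraries a group.

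The Complex I mRNAs of the plus strand rose to different degrees. MT-ND1 stood at 7767, 9800.4 and 8161 CPM with baicalein 20 µM, against 2732, 2823 and 2963 CPM in untreated LNCaP (log2 fold change 1.59 ± 0.11, edgeR adjusted p = 1.42e-07). MT-ND2, whose gene follows MT-TM, stood at 9681, 11814 and 10497 CPM, against 2098, 2463 and 2474 CPM (log2 fold change 2.19 ± 0.12, edgeR adjusted p = 1.31e-08). Among the Complex I mRNAs MT-ND2 had the highest fold, 4.55-fold. MT-ND3 stood at 1322, 1397 and 1211 CPM with baicalein 20 µM, against 533, 523 and 609 CPM in untreated LNCaP (log2 fold change 1.24 ± 0.13, edgeR adjusted p = 5.43e-06). MT-ND4 stood at 12946, 16290.0 and 14216 CPM, against 4512, 5179 and 4992 CPM (log2 fold change 1.57 ± 0.11, edgeR adjusted p = 1.9e-07). Its upstream partner on the same message, MT-ND4L, moved alongside it: 2773, 3257 and 2902 CPM with baicalein 20 µM, against 1013, 1134 and 1149 CPM in untreated LNCaP (log2 fold change 1.44 ± 0.10, edgeR adjusted p = 1.59e-07). The count ratio MT-ND4 to MT-ND4L was 4.86 ± 0.170 with baicalein 20 µM and 4.46 ± 0.112 in untreated LNCaP. MT-ND5 had the lowest rise of the 12, at 2606, 3295 and 2846 CPM, against 1898, 1959 and 2146 CPM (log2 fold change 0.54 ± 0.10, edgeR adjusted p = 0.00067). Its call ended when counts were scaled by library size alone (adjusted p = 0.157), a scaling that moved the median of all genes to -0.25. The groups did not overlap for any of these genes.

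The mRNAs of Complexes III and IV rose as well. MT-CYB, cytochrome b of Complex III, stood at 8385, 10964 and 9186 CPM with baicalein 20 µM, against 2954, 3477 and 3258 CPM in untreated LNCaP (log2 fold change 1.56 ± 0.12, edgeR adjusted p = 3.44e-07). MT-CO1, the catalytic subunit of cytochrome c oxidase, stood at 26189.7, 33998 and 29395 CPM, against 9689, 11248 and 10807 CPM (log2 fold change 1.50 ± 0.11, edgeR adjusted p = 1.89e-07). MT-CO2, which takes up electrons from cytochrome c, stood at 8658, 10313 and 9461 CPM, against 2699, 2929 and 2942 CPM (log2 fold change 1.73 ± 0.11, edgeR adjusted p = 4.56e-08). These genes rose 2.95-, 2.82- and 3.32-fold, in that order, with no overlap between the groups. MT-CO3, the third core subunit of Complex IV, rose less, at 6049, 7473 and 6728 CPM with baicalein 20 µM, against 3381, 3645 and 3764 CPM in untreated LNCaP (log2 fold change 0.91 ± 0.11, edgeR adjusted p = 1.09e-05). The count ratio MT-CO3 to MT-CO1 was 0.227 ± 0.00594 with baicalein 20 µM, against 0.340 ± 0.0141 in untreated LNCaP. The gene next to MT-CO3, MT-ATP6, rose most of all the mRNAs.

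**Figure D2:**
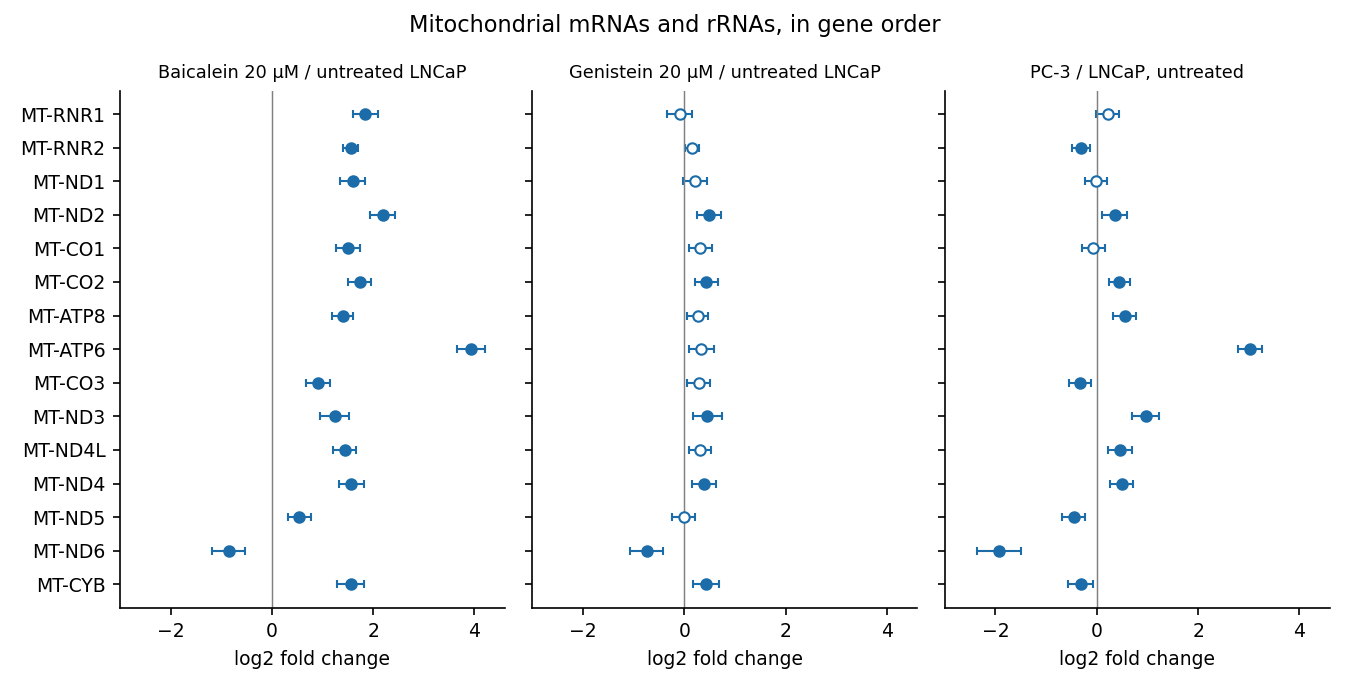
Log2 fold changes with 95% intervals of the 13 mRNAs and 2 rRNAs in gene order, for baicalein 20 µM against untreated LNCaP, genistein 20 µM against untreated LNCaP, and PC-3 against LNCaP, with filled points for genes called by edgeR. MT-ATP6 stands furthest to the higher side with baicalein 20 µM (3.93) and in PC-3 (3.03), while MT-ND6 lies below 0 in each comparison.

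MT-ATP6 encodes the subunit that forms the proton path of the ATP synthase, and it had the largest fold of the mitochondrial mRNAs in the baicalein 20 µM and in the PC-3 comparison. It stood at 6952, 8136 and 7323 CPM with baicalein 20 µM, against 461, 494 and 513 CPM in untreated LNCaP, a 15.3-fold difference (log2 fold change 3.93 ± 0.13, edgeR adjusted p = 2.1e-10). MT-ATP8, which lies upstream on the same message and encodes a small membrane subunit, stood at 2821, 3067 and 2801 CPM, against 1039, 1100.4 and 1159 CPM, a 2.63-fold difference (log2 fold change 1.40 ± 0.10, edgeR adjusted p = 1.41e-07). Both genes of the shared message rose, MT-ATP6 far more than MT-ATP8. The count ratio MT-ATP6 to MT-ATP8 was 2.46, 2.65 and 2.61 in the baicalein 20 µM libraries and 2.49, 2.48 and 2.49 in the PC-3 libraries, against 0.443, 0.449 and 0.442 in untreated LNCaP. The means of the other treated groups were 0.438 ± 0.0215 for baicalein 10 µM, 0.446 ± 0.0192 for genistein 10 µM and 0.469 ± 0.00964 for genistein 20 µM. The ratio thus took values near 2.5 in the baicalein 20 µM and PC-3 libraries and values below 0.5 in the other 12 libraries, with none in between. The ratio MT-ATP6 to MT-CO3, its downstream neighbour with a 1-base overlap, was 1.11 ± 0.0351 with baicalein 20 µM and 1.40 ± 0.0117 in PC-3, against 0.136 ± 0.000447 in untreated LNCaP.

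Reads were also counted on nuclear copies of mitochondrial genes. Of 380 symbols of nuclear copies, 4 passed 10 CPM in any group, namely MTATP6P1, MTND2P28, MTND4P12 and MTCO1P12. MTATP6P1 was listed at 666, 960.2 and 816 CPM by library size with baicalein 20 µM and 372, 439 and 416 CPM in PC-3, against 308, 380.5 and 359 CPM in untreated LNCaP. MTND4P12 ran from 6.70 to 24.3 CPM and MTCO1P12 from 4.85 to 17.3 CPM over the 18 libraries. The count ratio MT-ATP6 to MTATP6P1 was 8.07 ± 0.337 with baicalein 20 µM, 1.51 ± 0.0297 with baicalein 10 µM, 1.55 ± 0.0772 with genistein 20 µM, 1.47 ± 0.0799 with genistein 10 µM and 8.61 ± 0.121 in PC-3, against 1.51 ± 0.0778 in untreated LNCaP. In the 4 LNCaP groups with the low ratio, the copy was thus counted at about the same order as the gene itself. MTND2P28, the copy of MT-ND2, was listed at 1114, 1452 and 1316 CPM with baicalein 20 µM, against 406, 452 and 445 CPM in untreated LNCaP. The ratio MT-ND2 to MTND2P28 was 7.20 ± 0.265 with baicalein 20 µM and 5.90 ± 0.111 in PC-3, against 5.77 ± 0.325 in untreated LNCaP. With the counts of the chromosome 1 copies added to their genes, the log2 fold change of MT-ATP6 was 3.37 with baicalein 20 µM and 2.45 in PC-3, both still called. The summed ratio to MT-ATP8 was 2.90 ± 0.125 with baicalein 20 µM and 2.77 ± 0.00935 in PC-3, against 0.741 ± 0.0214 in untreated LNCaP. How reads with several possible positions were counted is not given in the sources used here, and its part in the ratio was not tested.

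**Figure D3:**
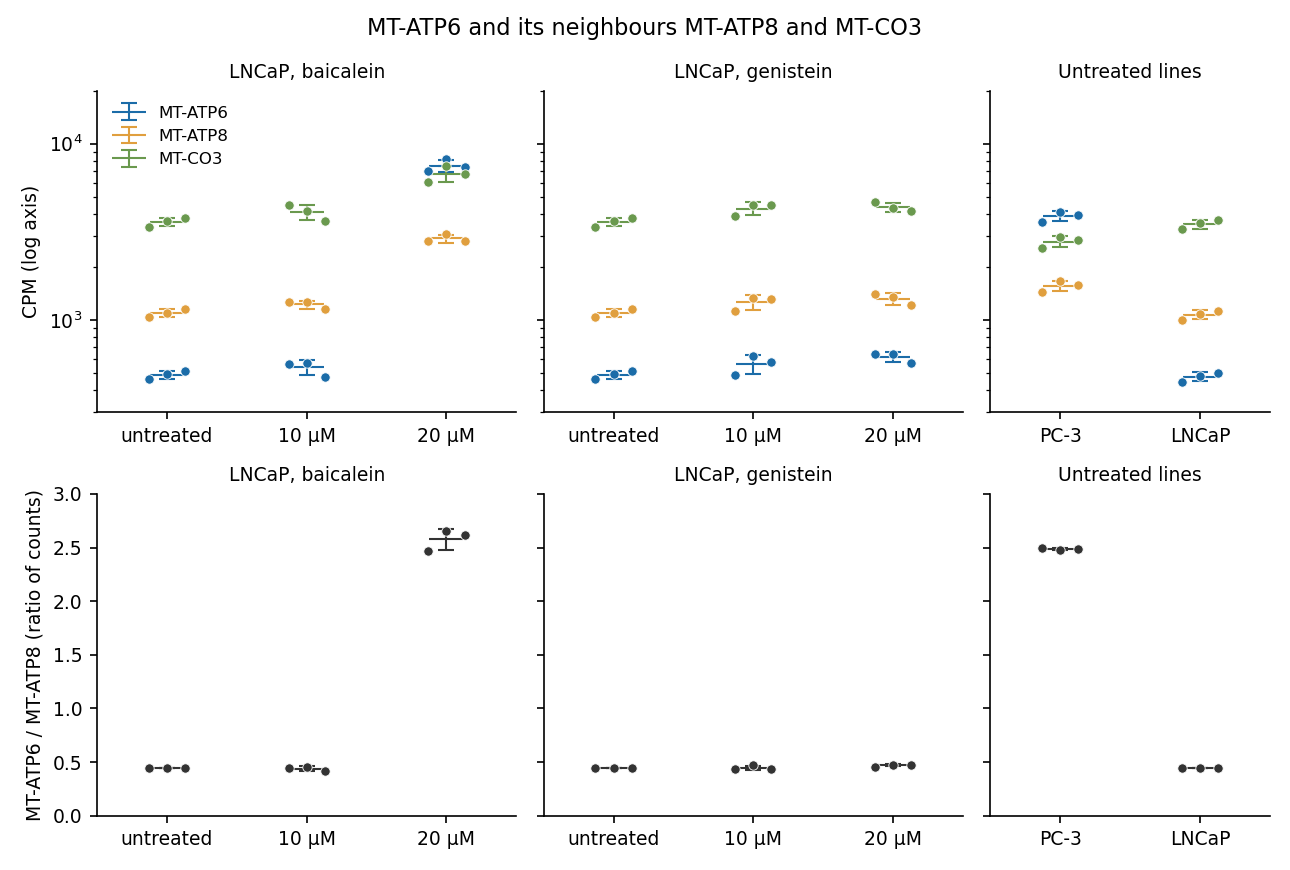
Upper panel, CPM (log axis) of MT-ATP6, MT-ATP8 and MT-CO3 in each library by group; lower panel, count ratio MT-ATP6 to MT-ATP8. The ratio lies near 2.5 in all baicalein 20 µM and PC-3 libraries and below 0.5 in all libraries of the other 4 groups.

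Both rRNAs rose with baicalein 20 µM. MT-RNR1, the 12S rRNA of the small ribosomal subunit, stood at 3645, 4719.9 and 3972 CPM, against 1071, 1194 and 1165 CPM in untreated LNCaP (log2 fold change 1.85 ± 0.11, edgeR adjusted p = 4.31e-08). MT-RNR2, the 16S rRNA of the large subunit, stood at 30048, 31829 and 30606 CPM, against 10219, 10634 and 10677 CPM (log2 fold change 1.55 ± 0.07, edgeR adjusted p = 1.92e-09). The groups did not overlap for either gene. The count ratio MT-RNR2 to MT-RNR1 was 7.56 ± 0.760 with baicalein 20 µM, against 9.20 ± 0.320 in untreated LNCaP. The count ratio of rRNAs to mRNAs was 0.328 ± 0.0227 with baicalein 20 µM and 0.327 ± 0.0122 in untreated LNCaP.

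Of the 15 tested tRNA genes, 9 rose and 1 fell with baicalein 20 µM, and the rises covered a wide range. MT-TL1, the leucine tRNA gene that follows MT-RNR2, had the most counts of them, at 232, 307 and 259 CPM with baicalein 20 µM, against 70.0, 79.6 and 77.7 CPM in untreated LNCaP (log2 fold change 1.81 ± 0.12, edgeR adjusted p = 8.58e-08). MT-TM, the methionine tRNA gene printed above, stood at 45.3, 58.0 and 50.2 CPM, against 6.18, 6.66 and 6.95 CPM, a 7.75-fold difference (log2 fold change 2.95 ± 0.13, edgeR adjusted p = 2.88e-09). MT-TR, the arginine tRNA gene printed above, stood at 14.6, 12.7 and 13.4 CPM, against 1.71, 1.41 and 1.61 CPM, an 8.55-fold difference (log2 fold change 3.10 ± 0.16, edgeR adjusted p = 1.23e-08). These tRNA genes and MT-ATP6 had the highest folds of the 30 mitochondrial genes tested in this comparison. MT-TK, the lysine tRNA gene between MT-CO2 and MT-ATP8, stood at 14.4, 11.7 and 11.9 CPM, against 3.22, 2.26 and 2.64 CPM (log2 fold change 2.22 ± 0.16, edgeR adjusted p = 1.27e-07). MT-TV, the valine tRNA gene between the rRNAs, rose less than either rRNA, at 20.0, 27.7 and 23.2 CPM with baicalein 20 µM, against 11.2, 13.4 and 13.2 CPM in untreated LNCaP (log2 fold change 0.91 ± 0.14, edgeR adjusted p = 0.000112). MT-TF, the phenylalanine tRNA gene before MT-RNR1, stood at 12.2, 16.1 and 13.7 CPM, against 9.71, 11.4 and 10.5 CPM (log2 fold change 0.41 ± 0.12, edgeR adjusted p = 0.0122). The MT-TF call ended without baicalein 20 µM replicate 2, untreated replicate 1 or untreated replicate 3 (adjusted p up to 0.0561), and in other settings the adjusted p reached 0.549. MT-TT, the threonine tRNA gene, overlapped between the groups, at 15.7, 8.54 and 11.0 CPM, against 15.2, 9.60 and 11.8 CPM (log2 fold change -0.06 ± 0.24, edgeR adjusted p = 0.849). Of the tRNA genes with group means below 10 CPM throughout, those that rose were MT-TI (1.04 log2 fold change), MT-TG (1.83) and MT-TD (0.52), and the MT-TD call ended under scaling by library size alone (adjusted p = 0.209). MT-TQ, MT-TW, MT-TH and MT-TP were not called. The mRNAs and rRNAs beside these tRNA genes rose as well, and whether reads that run across the borders have a part in the tRNA gene counts was not tested.

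**Figure D4:**
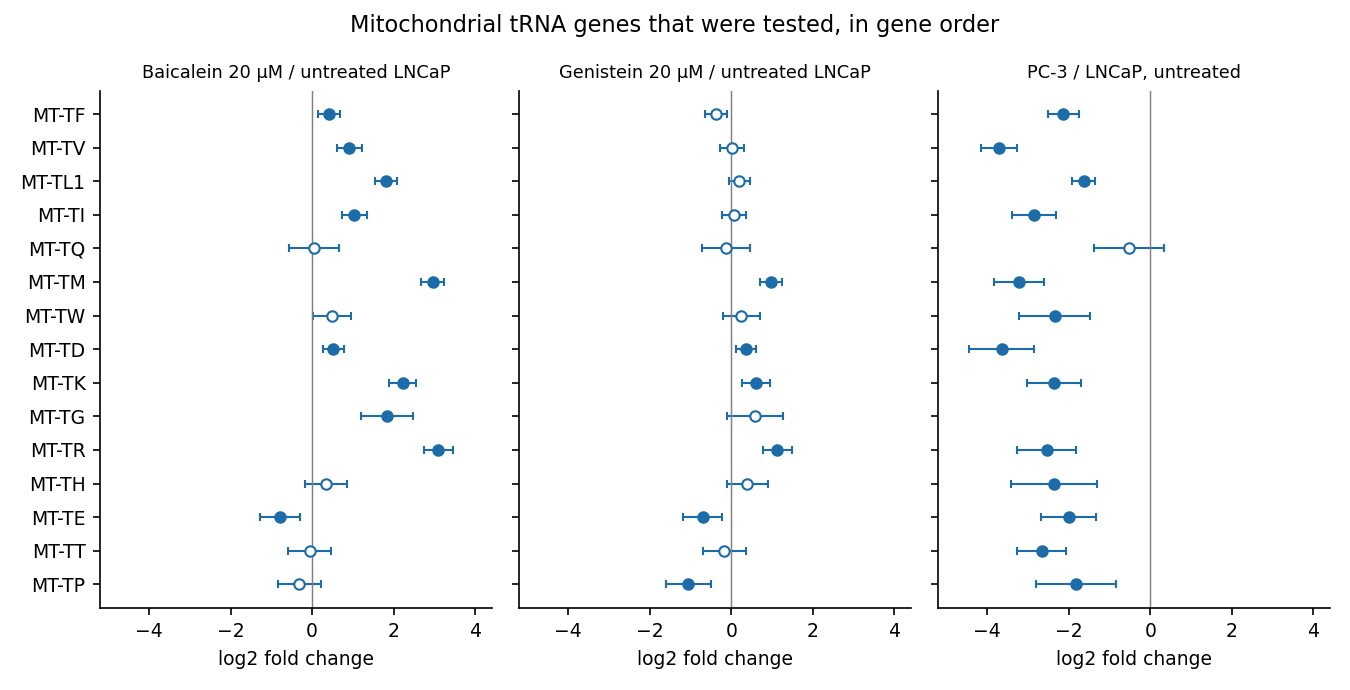
Log2 fold changes with 95% intervals of the 15 tested tRNA genes in gene order for the same 3 comparisons, with filled points for genes called by edgeR. With baicalein 20 µM the points of MT-TM (2.95) and MT-TR (3.10) lie furthest to the higher side, and in PC-3 the points of all 14 tested tRNA genes lie below 0.

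On the minus strand, which carries MT-ND6 and 8 tRNA genes, MT-ND6 and MT-TE fell with baicalein 20 µM. MT-ND6 stood at 53.5, 71.7 and 48.1 CPM with baicalein 20 µM, against 101, 100.4 and 112 CPM in untreated LNCaP, a fall of 1.81-fold (log2 fold change -0.85 ± 0.15, edgeR adjusted p = 0.000336). MT-TE, the glutamate tRNA gene next to MT-ND6 on that strand, stood at 1.64, 2.05 and 1.16 CPM, against 2.80, 2.75 and 2.87 CPM (log2 fold change -0.78 ± 0.23, edgeR adjusted p = 0.00999). Both fell without overlap between the groups, while every plus-strand mRNA rose. MT-TP, the proline tRNA gene with the highest coordinates of the minus-strand genes, stood at 1.16, 0.903 and 0.844 CPM, against 1.25, 1.04 and 1.32 CPM, with overlapping groups (log2 fold change -0.31 ± 0.25, edgeR adjusted p = 0.384). MT-TQ had a log2 fold change of 0.04 and was not called. The count ratio MT-ND6 to MT-ND5, its neighbour on the other strand, was 1.97 ± 0.253% with baicalein 20 µM, 2.70 ± 0.291% with baicalein 10 µM, 3.15 ± 0.158% with genistein 20 µM, 3.06 ± 0.114% with genistein 10 µM and 1.89 ± 0.485% in PC-3, against 5.22 ± 0.0847% in untreated LNCaP. The MT-ND6 mRNA has no poly(A) tail and the counts carry no strand, so these values are levels of what was captured on the gene.

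**Figure D5:**
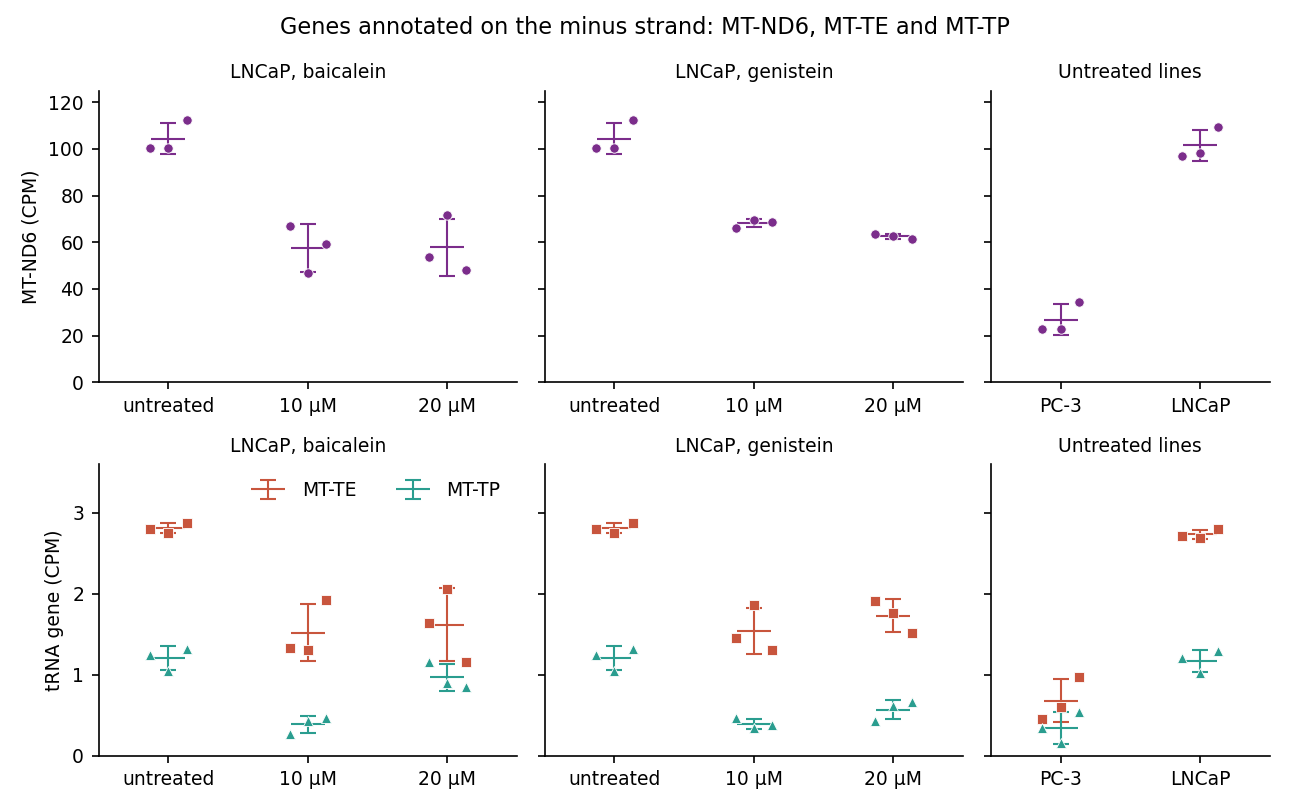
CPM of the minus-strand genes MT-ND6, MT-TE and MT-TP in each library by group. In MT-ND6 all drug-treated libraries lie below untreated LNCaP (100.4 to 112 CPM), and PC-3 has the lowest values.

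With genistein 20 µM the tRNA genes MT-TM and MT-TR rose, MT-ND6 fell, and most other differences were small. edgeR called 9 of the 30 tested genes higher and 3 lower, against a background of 16.4% of all genes called (8.31% higher and 8.12% lower). Before adjustment, 19 genes had a p under 0.05. The count of 12 was 6 without the filter and 5 under scaling by library size alone, 2 higher and 3 lower, with 0 of the mRNAs higher. The log2 fold changes of the 12 plus-strand mRNAs ran from -0.01 to 0.49, and 5 of them were called. The highest folds were in tRNA genes. MT-TM stood at 13.9, 13.2 and 11.9 CPM with genistein 20 µM, against 6.18, 6.66 and 6.95 CPM in untreated LNCaP (log2 fold change 0.98 ± 0.13, edgeR adjusted p = 0.000289). MT-TR stood at 3.12, 3.67 and 3.56 CPM, against 1.71, 1.41 and 1.61 CPM (log2 fold change 1.13 ± 0.16, edgeR adjusted p = 0.000688). Both rose about 2-fold without overlap, and their calls held without any single library. MT-ND6 stood at 63.7, 62.5 and 61.3 CPM, against 101, 100.4 and 112 CPM (log2 fold change -0.74 ± 0.15, edgeR adjusted p = 0.00539), and this fall also held without any single library. The other calls ended when single libraries were left out, while the log2 fold changes kept their sign in all settings tried. MT-ND2 (0.49 ± 0.11, adjusted p = 0.0105) was no longer called without genistein 20 µM replicate 1 (adjusted p = 0.0774). MT-TP (-1.05 ± 0.25, adjusted p = 0.0152) lost its call without that library too (adjusted p = 0.0539). MT-CO2 (0.43 ± 0.10), MT-ND4 (0.39 ± 0.11) and MT-CYB (0.43 ± 0.12) lost theirs without any one of the other 5 libraries but kept them without genistein 20 µM replicate 3, with adjusted p up to 0.0899, 0.183 and 0.165 in that order. MT-TK (0.60 ± 0.16) lost its call without genistein 20 µM replicate 2 or 3 or untreated replicate 2 or 3 (adjusted p up to 0.0961). MT-TD (0.36 ± 0.11), MT-ND3 (0.45 ± 0.13) and MT-TE (-0.70 ± 0.22) lost theirs without any one of the 6 libraries (adjusted p up to 0.192, 0.146 and 0.153 in that order). Over all settings tried the log2 fold changes were 0.35 to 0.54 for MT-ND2, -1.20 to -0.96 for MT-TP, 0.29 to 0.48 for MT-CO2, 0.25 to 0.45 for MT-ND4, 0.30 to 0.49 for MT-CYB, 0.45 to 0.75 for MT-TK, 0.22 to 0.40 for MT-TD, 0.32 to 0.49 for MT-ND3 and -0.84 to -0.61 for MT-TE. The number of genes called was 4, 5 and 8 without genistein 20 µM replicates 1, 2 and 3, and 6, 5 and 5 without untreated replicates 1, 2 and 3. MT-ATP6 stood at 641, 639.5 and 571 CPM with genistein 20 µM, against 461, 494 and 513 CPM (log2 fold change 0.33 ± 0.11, edgeR adjusted p = 0.0648), with no overlap, yet without a call. Neither rRNA was called, with MT-RNR1 at -0.10 ± 0.11 and MT-RNR2 at 0.14 ± 0.06. These log2 fold changes have 95% intervals of -0.33 to 0.14 and 0.00 to 0.28.

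At 10 µM of either drug few mitochondrial genes were called, on a background of few calls among all genes. With baicalein 10 µM edgeR called 1 of the 30 genes higher and 2 lower, against 0.4% of all genes (0.0883% higher and 0.312% lower). Before adjustment, 6 genes had a p under 0.05, and in a fit of the compared groups alone 0 were called. With library size alone as the scaling, 0 were called higher and 2 lower. The log2 fold changes of the 12 plus-strand mRNAs ran from 0.01 to 0.22, with 0 called. MT-RNR2 stood at 13253, 13473 and 13394 CPM with baicalein 10 µM, against 10219, 10634 and 10677 CPM in untreated LNCaP (log2 fold change 0.35 ± 0.06, edgeR adjusted p = 0.0379). MT-ND6 stood at 66.8, 46.6 and 59.1 CPM, against 101, 100.4 and 112 CPM (log2 fold change -0.86 ± 0.15, edgeR adjusted p = 0.0298). MT-TP stood at 0.266, 0.433 and 0.459 CPM, against 1.25, 1.04 and 1.32 CPM (log2 fold change -1.62 ± 0.28, edgeR adjusted p = 0.0286). In each of the 3 genes the libraries of the groups did not overlap. The MT-RNR2 and MT-TP calls ended whichever of the 6 libraries was left out, with adjusted p of 0.0749 to 0.262 for MT-RNR2 and of 0.0559 to 0.112 for MT-TP. With 1 library left out, the MT-ND6 call was kept only where that library was baicalein 10 µM replicate 1, and the adjusted p reached 0.129 otherwise. With genistein 10 µM edgeR called 1 gene, MT-TP, against 0.112% of all genes (0.0353% higher and 0.0765% lower). Before adjustment, 10 genes had a p under 0.05. DESeq2 called 2, 1 higher and 1 lower, the lower being an mRNA, and did not call MT-TP. Without the filter, or in a fit of the compared groups alone, edgeR called 0. The 12 plus-strand mRNAs ran from 0.14 to 0.30 on the log2 scale, with 0 called. MT-TP stood at 0.460, 0.337 and 0.382 CPM, against 1.25, 1.04 and 1.32 CPM (log2 fold change -1.61 ± 0.27, edgeR adjusted p = 0.0386), a difference of about 1 CPM. The call ended whichever of the 6 libraries was left out, at adjusted p of 0.0703 to 0.279. MT-ND6 stood at 66.1, 69.4 and 68.9 CPM with genistein 10 µM (log2 fold change -0.62 ± 0.15, edgeR adjusted p = 0.255), below all untreated libraries but not called by edgeR. MT-ATP6 was not called at 10 µM, with log2 fold changes of 0.14 ± 0.11 for baicalein and 0.20 ± 0.11 for genistein and 95% intervals of -0.11 to 0.38 and -0.04 to 0.45.

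The step from 10 to 20 µM differed between the drugs. For baicalein 20 against 10 µM edgeR called 25 of the 30 genes higher and 0 lower, against 54.4% of all genes called (26.8% higher and 27.5% lower). MT-ATP6 stood at 6952, 8136 and 7323 CPM with 20 µM, against 565, 572 and 476 CPM with 10 µM (log2 fold change 3.80 ± 0.13, edgeR adjusted p = 3.94e-10). MT-TR (3.02 ± 0.17) and MT-TM (3.00 ± 0.13) followed. The 5 genes not called were MT-ND6, MT-TE, MT-TH, MT-TQ and MT-TT. MT-ND6, low at both doses, had a log2 fold change of 0.01 ± 0.15 over this step. The calls of MT-TF and MT-TW ended without baicalein 20 µM replicate 2 or baicalein 10 µM replicate 3 (adjusted p up to 0.0562 and 0.0776). For genistein 20 against 10 µM edgeR called 5 genes higher and 2 lower, against 13.2% of all genes (5.59% higher and 7.63% lower). MT-TM (0.93 ± 0.13), MT-TR (1.09 ± 0.17), MT-TG (1.49 ± 0.37), MT-TK (0.77 ± 0.16) and MT-TD (0.42 ± 0.12) rose on the log2 scale. MT-TF (-0.51 ± 0.13) and MT-RNR1 (-0.43 ± 0.11) fell. The 5 that rose are tRNA genes of the plus strand, and no mRNA was called. The MT-TM, MT-TR and MT-TK calls held without any single library. The MT-TF call ended without genistein 20 µM replicate 2 or 3 or genistein 10 µM replicate 1 or 3 (adjusted p up to 0.0814), and the MT-RNR1 call without genistein 20 µM replicate 2 or 3 or genistein 10 µM replicate 2 or 3 (up to 0.0952). The MT-TD call ended without any one of the 6 libraries (up to 0.0929), and the MT-TG call without any one but genistein 20 µM replicate 1 (up to 0.111). The number called was 3 to 6 with 1 library left out. With library size alone 3 were called higher and 2 lower, and with DESeq2 3 higher and 3 lower. The difference between the steps of the drugs was also tested as such, and edgeR called it in 21 of the 30 genes, all with a signed log2 step lower with genistein than with baicalein, against 32.8% of all genes called (17.3% higher and 15.5% lower). Of the 21, MT-TF and MT-RNR1 were called lower over the step with genistein and higher with baicalein. MT-RNR2 (-0.15) also lay below 0 over the genistein step but was not called. Mean CPM of MT-ND5 and MT-TV was likewise lower with genistein 20 than 10 µM, again without a call.

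Genistein, an isoflavone, and baicalein, a flavone, are isomers whose phenyl ring is attached at different carbons of the core and whose hydroxyl groups are placed differently. They were compared at both matched doses, which makes 2 pairs. At 20 µM edgeR called 22 of the 30 genes lower with genistein than with baicalein and 0 higher, against 48.7% of all genes called (25.4% higher and 23.3% lower). MT-ATP6 stood at 641, 639.5 and 571 CPM with genistein 20 µM, against 6952, 8136 and 7323 CPM with baicalein 20 µM (log2 fold change -3.60 ± 0.13, edgeR adjusted p = 1.15e-09, 95% interval -3.87 to -3.32). MT-RNR1 stood at 1156, 1058 and 998 CPM, against 3645, 4719.9 and 3972 CPM (log2 fold change -1.94 ± 0.11, edgeR adjusted p = 7.58e-08, interval -2.19 to -1.69). The 8 genes not called included all 4 tested genes of the minus strand; for MT-ND6 the log2 difference was 0.11 ± 0.15 with an interval of -0.21 to 0.44. The share of counts from the 37 genes was 6.84 percentage points lower with genistein than with baicalein at 20 µM (exact permutation p = 0.1, the smallest possible, and 0.2 adjusted over the 2 pairs). At 10 µM it was 0.512 points higher with genistein (exact permutation p = 0.3, adjusted 0.3). At 10 µM edgeR called 0 of the 30 genes between the drugs, on a background of 0.00589% of all genes. At an unadjusted p under 0.05 the count was also 0, and DESeq2 also called 0. The 95% intervals lay within 2-fold in either direction for 13 of 13 mRNAs, 2 of 2 rRNAs and 14 of 15 tRNA genes, with bounds from -0.29 to 0.57 among the mRNAs. The exception was MT-TG (-0.85, interval -1.74 to 0.04), which had 0.230, 0.281 and 0.153 CPM with genistein 10 µM, against 0.620, 0.347 and 0.275 CPM with baicalein 10 µM. The missing calls do not show that the drugs act alike, since differences within these bounds may go undetected with 3 libraries a group. The comparisons of both drugs with untreated LNCaP share the untreated libraries, so their values stand side by side here without a test of likeness.

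Untreated PC-3 had more counts of MT-ATP6, and fewer of MT-ND6 and of the tRNA genes, than untreated LNCaP. edgeR called 7 of the 29 tested genes higher and 18 lower in PC-3, against 74.9% of the 17259 genes tested (37% higher and 37.9% lower). MT-ATP6 stood at 3609.5, 4097 and 3945 CPM in PC-3, against 445, 483 and 499 CPM in LNCaP, 8.16-fold higher (log2 fold change 3.03 ± 0.10, edgeR adjusted p = 8.5e-07). MT-ATP8 stood at 1448, 1655 and 1587 CPM, against 1004, 1076 and 1129 CPM (log2 fold change 0.55 ± 0.10, edgeR adjusted p = 0.00155). Of the pair that shares a message, MT-ATP6 again differed far more. Among the Complex I mRNAs, MT-ND3 stood at 955, 1099 and 1102 CPM in PC-3, against 515, 511 and 593 CPM in LNCaP (log2 fold change 0.96 ± 0.11, edgeR adjusted p = 0.00018). MT-ND4 stood at 6307, 7212 and 6627 CPM, against 4358, 5062 and 4861 CPM (log2 fold change 0.50 ± 0.10, edgeR adjusted p = 0.00246). MT-ND4L (0.46 ± 0.10) and MT-ND2 (0.35 ± 0.10) were higher as well. MT-ND5 was lower, at 1349, 1493 and 1407 CPM in PC-3, against 1833, 1914 and 2089.5 CPM in LNCaP (log2 fold change -0.46 ± 0.09, edgeR adjusted p = 0.00314). MT-ND6 stood at 22.8, 22.9 and 34.3 CPM, against 97.1, 98.2 and 109 CPM (log2 fold change -1.93 ± 0.18, edgeR adjusted p = 7.12e-05). MT-ND6 was thus 3.81-fold lower in PC-3. MT-ND1 (-0.01 ± 0.09) was not called. The Complex IV mRNAs split: MT-CO2 was higher (0.45 ± 0.09), MT-CO3 lower (-0.33 ± 0.09), and MT-CO1 (-0.07 ± 0.10) was not called. MT-CO3 stood at 2561, 2955 and 2830.5 CPM in PC-3, against 3266, 3563 and 3665 CPM in LNCaP. MT-CYB stood at 2358, 2736 and 2468 CPM, against 2853, 3399 and 3172 CPM (log2 fold change -0.32 ± 0.10, edgeR adjusted p = 0.0269). The calls of 3 small differences ended without single libraries, while the fold changes stayed on the same side of 0: the MT-ND2 call ended without PC-3 replicate 2 (adjusted p = 0.0536), the MT-CO3 call without PC-3 replicate 1 or LNCaP replicate 3 (up to 0.0588), and the MT-CYB call without PC-3 replicate 1 or 3 or LNCaP replicate 2 or 3 (up to 0.0934). Over all settings tried their log2 fold changes were 0.07 to 0.43, -0.61 to -0.24 and -0.60 to -0.23, in that order. Scaling by library size alone, which moved the median of all genes to -0.31, ended the calls of MT-CO2, MT-ATP8, MT-ND4L, MT-ND4 and MT-ND2 and called MT-CO1 (-0.35, edgeR adjusted p = 0.0271) and MT-ND1 (-0.29, adjusted p = 0.0425) lower. Under that scaling 2 of the 13 mRNAs were called higher and 6 lower, against 7 higher and 4 lower with TMM, and of all 29 genes 2 were called higher and 20 lower.

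Of the rRNAs, MT-RNR2 was lower in PC-3, at 7812, 8402 and 8363 CPM, against 9870.2, 10393 and 10396 CPM in LNCaP (log2 fold change -0.32 ± 0.07, edgeR adjusted p = 0.00618). MT-RNR1 was not called, at 1205, 1289 and 1376 CPM in PC-3, against 1035, 1167 and 1135 CPM in LNCaP (log2 fold change 0.21 ± 0.10, edgeR adjusted p = 0.081), but it was called higher without PC-3 replicate 1 (0.30, edgeR adjusted p = 0.0302). The count ratio MT-RNR2 to MT-RNR1 was 6.36 ± 0.243 in PC-3, against 9.20 ± 0.320 in LNCaP. Of the tested tRNA genes, 13 of 14 were called lower in PC-3, with a median log2 fold change of -2.36, against -0.02 over all genes tested. MT-TL1 stood at 21.0, 25.5 and 24.7 CPM in PC-3, against 67.6, 77.8 and 75.7 CPM in LNCaP (log2 fold change -1.63 ± 0.12, edgeR adjusted p = 2.04e-05). MT-TV stood at 1.02, 0.910 and 0.867 CPM, against 10.8, 13.1 and 12.8 CPM (log2 fold change -3.70 ± 0.19, edgeR adjusted p = 3.89e-06), which rests on 9, 12 and 8 counts in PC-3 and 215, 219 and 229 counts in LNCaP. MT-TM stood at 0.794, 0.455 and 0.867 CPM, against 5.97, 6.51 and 6.77 CPM (log2 fold change -3.21 ± 0.26, edgeR adjusted p = 3.2e-05), or 7, 6 and 8 counts in PC-3 and 119, 109 and 121 in LNCaP. For each of these genes every PC-3 library was below every LNCaP library. MT-TF (-2.13), MT-TK (-2.36), MT-TR (-2.54) and MT-TT (-2.66) were lower too, and MT-TQ was not called (log2 fold change -0.53 ± 0.36, edgeR adjusted p = 0.218). MT-TK rests on 4, 8 and 4 counts in PC-3 and 62, 37 and 46 in LNCaP. MT-TR rests on still fewer, 3, 3 and 2 counts in PC-3 and 33, 23 and 28 in LNCaP. Side by side, the log2 fold changes with baicalein 20 µM and in PC-3 were 2.95 and -3.21 for MT-TM, 3.10 and -2.54 for MT-TR, and 3.93 and 3.03 for MT-ATP6. These comparisons share the untreated LNCaP libraries.

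Nuclear genes whose products work with the mitochondrial genome were counted in 13 lists with 196 entries. With baicalein 20 µM the respiratory chain lists had more members called higher than lower with TMM scaling, apart from Complex II, whereas Complexes I and V had more called lower under scaling by library size alone. The background with TMM was 29.4% of all genes called higher and 27.8% lower, with a median of 0.04. Of nuclear Complex I subunits 14 of 37 were called higher and 5 lower (median log2 fold change 0.25). NDUFS4, an accessory subunit, stood at 79.7 ± 9.41 CPM with baicalein 20 µM and 43.3 ± 7.92 CPM in untreated LNCaP (log2 fold change 0.88 ± 0.13, edgeR adjusted p = 9.56e-05), and the iron-sulfur subunit NDUFS1 fell (-0.64 ± 0.11). Of the Complex II subunits 0 of 4 were called higher and 2 lower (median log2 fold change -0.28): SDHA, the flavoprotein (-0.55 ± 0.13), and SDHC, a membrane anchor (-0.72 ± 0.21). Of Complex III subunits 3 of 9 were called higher and 0 lower (median log2 fold change 0.18), the small subunits UQCRQ (0.71 ± 0.12), UQCR11 (0.43 ± 0.11) and UQCRB (0.49 ± 0.17). The UQCR11 call ended under scaling by library size alone (adjusted p = 0.466), and the UQCRB call under that scaling and without baicalein 20 µM replicate 1 or 3 or untreated replicate 1 or 2 (up to 0.318). Of Complex IV subunits 8 of 11 were called higher and 0 lower (median 0.41). COX5B stood at 205 ± 16.7 CPM with baicalein 20 µM and 114 ± 8.55 CPM in untreated LNCaP (log2 fold change 0.84 ± 0.11, edgeR adjusted p = 2.83e-05), with COX6A1 (0.83 ± 0.11) and COX6C (0.62 ± 0.10) next. Of Complex V subunits 6 of 17 were called higher and 3 lower (median log2 fold change 0.16). ATP5F1E, the epsilon subunit, was higher (0.79 ± 0.11), whereas ATP5MC3 of the c-ring (-0.58 ± 0.09) and ATP5F1B, the catalytic beta subunit (-1.03 ± 0.17), were lower. Scaling by library size alone, which moved the median of all genes to -0.25, called 1 higher and 12 lower for Complex I, 1 higher and 1 lower for Complex III, 3 higher and 0 lower for Complex IV, and 3 higher and 5 lower for Complex V.

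Genes that copy, read and process the mitochondrial genome had calls in both directions with baicalein 20 µM, on the same background of 29.4% of all genes higher and 27.8% lower. The counts for transcription, cleavage and modification, translation factors, and proteases and chaperones lie near that background for lists of this size. They are not read as results about these lists. Among mtDNA transcription genes 2 of 9 were called higher and 3 lower (median log2 fold change 0.31): the elongation factor TEFM rose (0.88 ± 0.10), and MTERF4, which acts in ribosome assembly (-1.10 ± 0.16), and MRPL12, a ribosomal protein that binds the mitochondrial RNA polymerase (-0.90 ± 0.13), fell. Among replication and packaging genes 6 of 15 were called higher and 2 lower (median log2 fold change 0.22). POLG2, the accessory subunit of the mitochondrial DNA polymerase, stood at 59.6 ± 14.9 CPM with baicalein 20 µM and 17.7 ± 1.11 CPM in untreated LNCaP (log2 fold change 1.75 ± 0.17, edgeR adjusted p = 2.52e-06), while the DNA ligase LIG3 fell (-0.75 ± 0.09) and the deoxyguanosine kinase DGUOK rose (0.70 ± 0.12). The count of 8 was 5 without untreated replicate 2. Among RNA cleavage and modification genes 6 of 21 were called higher and 6 lower (median log2 fold change -0.02), with the tRNA methyltransferase TRMT5 higher (0.81 ± 0.11) and the rRNA methyltransferase TFB1M (-0.72 ± 0.11) and PRORP, the nuclease that cuts tRNA 5′ ends (-0.72 ± 0.11), lower. Among genes of RNA polyadenylation, stability and decay 2 of 19 were called higher and 8 lower (median log2 fold change -0.20). SUPV3L1, the helicase of the mitochondrial RNA degradosome, stood at 149 ± 16.1 CPM with baicalein 20 µM and 49.2 ± 3.65 CPM in untreated LNCaP (log2 fold change 1.60 ± 0.12, edgeR adjusted p = 3.12e-07), while PTCD3 of the small ribosomal subunit (-0.93 ± 0.09) and FASTKD1, an RNA-binding protein of the FASTK family (-1.86 ± 0.20), fell. Among translation factors 2 of 12 were called higher and 3 lower (median log2 fold change 0.18): the elongation factor GFM1 (-1.21 ± 0.11) and the ribosome recycling factor GFM2 (-1.17 ± 0.16) fell, and the release factor MTRF1L rose (0.81 ± 0.23). The count of 5 was 3 without untreated replicate 3. Aminoacyl-tRNA synthetases, which charge the mitochondrial tRNAs, had more members called lower than higher: 3 of 18 were called higher and 11 lower (median -0.63). LARS2, for leucine, stood at 17.1 ± 3.07 CPM with baicalein 20 µM and 69.5 ± 17.5 CPM in untreated LNCaP (log2 fold change -2.02 ± 0.22, edgeR adjusted p = 5.12e-06), and MARS2, for methionine (-1.12 ± 0.08), and IARS2, for isoleucine (-0.91 ± 0.09), fell with it. Of the tested regulators of mitochondrial biogenesis 5 of 11 were called higher and 1 lower (median 0.79). NRF1, a transcription factor for nuclear respiratory genes, stood at 114 ± 17.3 CPM with baicalein 20 µM and 30.7 ± 3.02 CPM in untreated LNCaP (log2 fold change 1.89 ± 0.15, edgeR adjusted p = 4.38e-07), and the deacetylase SIRT1 (2.49 ± 0.37) and the coactivator PPRC1 (0.90 ± 0.14) rose too. Among proteases and chaperones 3 of 12 were called higher and 4 lower (median log2 fold change -0.19), with the chaperone TRAP1 (-1.01 ± 0.12) and the protease OMA1 (-1.28 ± 0.23) lower and HSPA9, the mitochondrial HSP70 (0.79 ± 0.13), higher. Scaling by library size alone turned the splits of replication and packaging and of biogenesis regulators to more called lower. It also moved the even split of cleavage and modification to more called lower, and left the other lists given here with more called lower. It called 2 higher and 4 lower for replication and packaging, 3 higher and 4 lower for biogenesis regulators, 5 higher and 8 lower for cleavage and modification, 2 higher and 8 lower for proteases and chaperones, and 1 higher and 12 lower for synthetases. For transcription and for translation factors it called 1 higher and 3 lower each, and DESeq2 gave the same split for transcription.

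With genistein 20 µM, Complex IV had the most calls of these lists, 6 higher and 0 lower of 11. That count was 2 or 3 without any one library and 0 under scaling by library size alone. Each of the other lists had between 0 and 4 members called, on the background of 16.4%. At 10 µM of either drug, 0 members were called in each list. In PC-3 the respiratory chain lists had more members called higher than lower against LNCaP: 22 of 37 higher and 6 lower for Complex I (median log2 fold change 0.63), 2 of 4 higher and 0 lower for Complex II (median 0.74) and 7 of 9 higher and 1 lower for Complex III (median 0.54). The counts were 8 of 11 higher and 0 lower for Complex IV (median 0.73) and 9 of 17 higher and 2 lower for Complex V (median 0.48), on the background of 37% higher and 37.9% lower. NDUFA11, an accessory subunit of Complex I, stood at 551 ± 95.9 CPM in PC-3 and 66.3 ± 5.14 CPM in LNCaP (log2 fold change 3.05 ± 0.16, edgeR adjusted p = 4.39e-06). SDHB (1.37 ± 0.16), CYC1, the cytochrome c1 of Complex III (1.64 ± 0.11), COX5B (1.98 ± 0.14) and ATP5MC3 (1.20 ± 0.09) were higher too. With library size alone the calls were 4 higher and 2 lower for Complex III and 6 higher and 1 lower for Complex IV, and DESeq2 6 higher and 2 lower for Complex III. The lists of genome upkeep and expression had calls in both directions. Called in PC-3 were 2 of 9 higher and 2 lower for transcription (median 0.01), 6 of 15 higher and 4 lower for replication (median 0.13) and 8 of 21 higher and 7 lower for cleavage and modification (median 0.17). Likewise there were 5 of 19 higher and 4 lower for stability and decay (median -0.23), 3 of 12 higher and 4 lower for translation factors (median -0.01) and 5 of 18 higher and 6 lower for synthetases (median -0.08). MTERF4 stood at 8.30 ± 0.295 CPM in PC-3 and 61.0 ± 4.73 CPM in LNCaP (log2 fold change -2.88 ± 0.11, edgeR adjusted p = 1.4e-06). LIG3 (-2.12 ± 0.10), the rRNA methyltransferase NSUN4 (-1.26 ± 0.11), the ribosome recycling factor MRRF (-1.43 ± 0.11) and EARS2, the synthetase for glutamate (-1.66 ± 0.14), were lower in PC-3, and SUPV3L1 was higher (1.05 ± 0.12). Of biogenesis regulators 2 of 11 were called higher and 3 lower (median 0.04), with the nuclear receptor ESRRG at 3.16 ± 0.335 CPM in PC-3 and 0.145 ± 0.0822 CPM in LNCaP (log2 fold change 4.36 ± 0.35, edgeR adjusted p = 3.09e-05). That count of 5 was 9 without PC-3 replicate 3 and 3 without LNCaP replicate 2. Of proteases and chaperones 2 of 12 were called higher and 6 lower (median -0.27), with the protease HTRA2 higher (1.72 ± 0.11). Library size alone gave 4 higher and 8 lower for cleavage and modification, 1 higher and 10 lower for stability and decay and for synthetases, 1 higher and 5 lower for biogenesis regulators, and 1 higher and 8 lower for proteases and chaperones. DESeq2 called 3 higher and 8 lower for stability and decay and 1 higher and 5 lower for biogenesis regulators.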

How the data were processed

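Poly(A) RNA of 18 libraries was sequenced; per the labels' protocols total RNA was extracted with TRIzol and libraries were built with the NEBNext Ultra RNA kit. The authors deposited whole-number counts per gene and library, which were used as deposited. The submitters' processing notes name GRCh38, STAR 2.7.6a, fastp, DESeq2 1.20.0 and featureCounts 1.6.4 without roles or order. The handling of reads with several positions or on overlapping genes is not given in the sources used here. The 18 FPKM columns of the same table were not used.

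Genes were tested with the edgeR 4.0.16 quasi-likelihood F test (R 4.3.3, TMM, the default filter on low counts, robust), with Benjamini-Hochberg adjustment over all genes tested and calls at an adjusted p under 0.05. A first fit held the 15 LNCaP libraries (16985 genes, 10 residual degrees of freedom) and a second the 6 untreated libraries (17259 genes, 4 residual degrees of freedom). Standard errors were taken from the F statistic and the fold change before shrinkage, and 95% intervals place them around the reported, shrunken value. Shares of counts were compared with exact permutation tests. Reads carry no molecular identifiers, and depth limits the tRNA genes most. The scripts were tested on simulated data.

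The 37 genes, the lists and the tests were chosen with earlier results of these data known. Named list genes are the 3 with the smallest adjusted p for baicalein 20 µM, and the 1 for PC-3, where called; 1 of them is not reported here. mRNAs, rRNAs and tRNA genes of at least 10 CPM in any group are given per library. Sequences come from GENCODE 29, whose coordinates equal the deposited ones for all 37 genes. Alternatives were DESeq2 1.42.0, scaling by library size alone or without MT- genes, no filter, other sets of libraries, a replicate block, leaving out each library, and adding up chromosome 1 copies.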

Additional observations from a re-analysis of the deposited data

Results flagged for a closer look

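For 21 of the 30 tested genes the step from 10 to 20 µM differed between genistein and baicalein when that difference was itself tested in edgeR (the genistein step minus the baicalein step, log2 scale, adjusted p under 0.05). All 21 values were below 0, on a background of 32.8% of all genes called, 15.5% called lower. For MT-ATP6 the step was 0.13 ± 0.11 with genistein and 3.80 ± 0.13 with baicalein, a difference of -3.67 ± 0.17 (edgeR adjusted p = 2.91e-08). The 12 mRNAs were MT-ND1 (-1.50), MT-ND2 (-1.80), MT-CO1 (-1.30), MT-CO2 (-1.42), MT-ATP8 (-1.18), MT-ATP6 (-3.67), MT-CO3 (-0.69), MT-ND3 (-0.79), MT-ND4L (-1.17), MT-ND4 (-1.23), MT-ND5 (-0.62) and MT-CYB (-1.20). They are all plus-strand mRNAs, and MT-ND6 was not called (-0.13 ± 0.21). The rRNAs were MT-RNR1 (-1.94) and MT-RNR2 (-1.35). The 7 tRNA genes were MT-TF (-0.93), MT-TV (-1.01), MT-TL1 (-1.73), MT-TI (-1.15), MT-TM (-2.07), MT-TK (-1.55) and MT-TR (-1.93). MT-TM and MT-TR rose over the step with both drugs, by 0.93 ± 0.13 and 1.09 ± 0.17 with genistein and by 3.00 ± 0.13 and 3.02 ± 0.17 with baicalein, while MT-RNR1 fell by 0.43 on the log2 scale with genistein and rose by 1.50 with baicalein. The MT-ND5 call ended under scaling by library size alone.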

How the results depend on the processing

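The directions for baicalein 20 µM held for all 25 called genes under every alternative, with 22 to 26 genes called. The count for genistein against baicalein at 20 µM was 22 to 23, for the interaction 20 to 21 and for PC-3 against LNCaP 22 to 26. The count of 12 for genistein 20 µM was 5 under scaling by library size alone, 6 without the filter and 4 to 8 without 1 library. The count of 7 for genistein 20 against 10 µM was 4 without the filter and 3 to 6 without 1 library. The count of 3 for baicalein 10 µM was 0 in a fit of the compared groups alone, 0 with the replicate block and 0 to 1 without 1 library. The count of 1 for genistein 10 µM was 2 with DESeq2, which did not call MT-TP. It was 0 without the filter, in a fit of the compared groups alone, with the replicate block and without any 1 library. Of 2113 recomputed values for single mitochondrial genes, 1946 kept direction and side of the threshold, 154 lost the call, 4 gained it and 9 changed sign, all of the last uncalled. The sign changes were MT-ND5 with genistein 20 µM (-0.115 to 0.0200 without 1 library), MT-RNR1 in PC-3 (-0.0688 by library size alone), MT-ND1 in PC-3 (0.00883 in a fit of all libraries and -0.0501 to 0.0713 without 1 library) and MT-CO1 in PC-3 (-0.139 to 0.00455 without 1 library). The cause of these changes was not tested. Library size alone moved the median of all genes to -0.25 for baicalein 20 µM and -0.31 for PC-3, where DESeq2 gave -0.21. For several nuclear lists the split of calls also turned under library size alone. Deviations of same-numbered LNCaP libraries from their group means correlated at -0.40 to 0.34, with 7 of 30 pairs over 0.1. Differently numbered LNCaP libraries correlated at -0.33 to 0.45, with 19 of 60 pairs over 0.1. Same-numbered libraries were thus no more alike than others, which cannot exclude a shared culture or batch. Low counts limit the tRNA genes.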
